A study of Mus musculus with 3 samples.

Results

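The genes described here encode the enzymes that turn arachidonic acid into leukotrienes and prostaglandins, together called eicosanoids. They are 10 genes taken by symbol (Ltc4s, Alox5, Alox5ap, Lta4h, Alox15, Ptgs1, Ptgs2, Ptges, Hpgds and Tbxas1) out of the 23234 genes in each table, and all 10 had a row. RNA was sequenced from 3 flow-sorted cell populations of wild-type C57BL/6J mice aged 6 to 15 weeks that had received lipopolysaccharide (LPS, a bacterial cell wall component) in both nostrils, at 10 µg in 10 µL of PBS. Double-positive cells (DP) were CD45+Ly6G+SiglecF+ cells of the nose at 2 days, nasal neutrophils were CD45+Ly6G+SiglecF- cells of the nose at 1 day, and blood neutrophils were CD45+Ly6G+SiglecF- cells of peripheral blood at 1 day. No unexposed mice are among the samples, the number of mice behind each sort is not given in the labels, and each population is 1 library. Spread between replicates is thus unknown for every value below, and no difference was tested. Between DP and nasal neutrophils the effect of the day and of the SiglecF gate cannot be told apart. The sample code of the nasal neutrophil library in the labels is also not next to the codes of the other libraries, which follow each other, and whether that library was prepared or sequenced separately is not stated there.

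Leukotriene synthesis starts when 5-lipoxygenase (Alox5), helped by the membrane protein FLAP (Alox5ap), oxidises arachidonic acid to leukotriene A4. At that branch point leukotriene A4 hydrolase (Lta4h) makes leukotriene B4, a strong neutrophil attractant and the classical leukotriene of neutrophils, while leukotriene C4 synthase (Ltc4s) joins glutathione to leukotriene A4 and opens the cysteinyl leukotriene route, known best from eosinophils, mast cells and macrophages. In the other pathway the cyclooxygenases Ptgs1 and Ptgs2 make prostaglandin H2, which Ptges converts to prostaglandin E2, Hpgds to prostaglandin D2 and Tbxas1 to thromboxane A2. Alox15 is the 12/15-lipoxygenase of mouse macrophages and eosinophils.

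Promoter sequences are shown for 3 members, Ltc4s, Ptgs1 and Ptgs2, since the cyclooxygenase genes differed between DP and nasal neutrophils in opposite directions and Ltc4s had the largest ratio of the members in that comparison. Each run is the 250 bases before the annotated start site, read 5′ to 3′ on the gene's strand from RefSeq on GRCm38.p6, a later build than the mm9 of the deposited values, and 8 of the 10 members had an entry. Capitals mark matches to a GC box (GGGCGG) or to a C/EBP-type motif (TTGCNNAA).
Ltc4s, chr11:50238533-50238782, strand -: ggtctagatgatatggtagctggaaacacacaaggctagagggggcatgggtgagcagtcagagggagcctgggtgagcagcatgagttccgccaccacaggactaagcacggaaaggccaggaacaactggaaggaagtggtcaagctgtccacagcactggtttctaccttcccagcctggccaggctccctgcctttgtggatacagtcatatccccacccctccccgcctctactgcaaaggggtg
Ptgs1, chr2:36230176-36230425, strand +: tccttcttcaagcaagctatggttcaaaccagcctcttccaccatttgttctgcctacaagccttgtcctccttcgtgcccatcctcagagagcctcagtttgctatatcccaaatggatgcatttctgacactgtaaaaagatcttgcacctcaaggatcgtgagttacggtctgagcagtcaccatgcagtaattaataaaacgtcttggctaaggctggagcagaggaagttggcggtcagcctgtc
Ptgs2, chr1:150099781-150100030, strand +: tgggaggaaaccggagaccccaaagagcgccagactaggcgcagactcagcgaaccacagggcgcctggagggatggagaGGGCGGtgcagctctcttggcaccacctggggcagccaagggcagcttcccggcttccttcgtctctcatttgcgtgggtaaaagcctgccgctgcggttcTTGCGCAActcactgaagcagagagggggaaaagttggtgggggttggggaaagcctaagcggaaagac

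The Ptgs2 window held a GC box starting at position -170 and a C/EBP-type match starting at -69, counted from the start site, and these did not overlap. The Ltc4s and Ptgs1 windows matched neither motif, and none of the 3 windows matched a TATA box (TATAAA), a CRE core (TGACGT) or an E-box (CACGTG), all searched on both strands. Of 27025 promoter windows of the same length, 32.9% held the GC box, 9.55% the C/EBP-type motif, 13% the TATA box, 6.56% the CRE core and 6.05% the E-box. Sequence outside these windows, also that after the start site, was not searched, so a motif missing here may lie elsewhere in the gene. A match describes letters only, and no binding was measured in these samples.

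Values are FPKM, the number of sequenced fragments per kilobase of transcript and per 1000000 mapped fragments. This scales levels for transcript length, but a trend with length remained between libraries, as given below. Comparisons of levels between genes of unlike length are thus approximate. The step size of the lowest values corresponded to about 54800000 fragments in DP, 12800000 in nasal and 54300000 in blood neutrophils, so the nasal neutrophil library was the shallowest. Log2 ratios were taken after adding 1 FPKM to both values, so that those of low genes come out too small, while a fold is the plain quotient of FPKM. Comparisons covered the 10719 genes averaging 1 FPKM or more across the libraries, called tested genes here although no significance test was possible, and all 10 members were among them. All 8 neutrophil markers with a row were lower in DP than in nasal neutrophils, with sums of 12620 FPKM in DP, 53370 in nasal and 77280 in blood neutrophils. They differed least for Csf3r, at 581.4 FPKM in DP, 606.8 in nasal and 1180 in blood neutrophils, and much more for Retnlg, at 142.9 FPKM in DP, 4692 in nasal and 20894 in blood neutrophils. Ly6g was on the marker list too, but no row was matched to it, so its level could not be read. Siglec5, the row that holds the SiglecF gene, was 16.9-fold higher in DP than in nasal neutrophils. An exact 0 in these tables can be a failed estimate, since the abundant neutrophil gene S100a8 was listed at 0 in blood neutrophils.

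Ltc4s was the member that set DP apart most. It was at 417.9 FPKM in DP, 4.61 in nasal and 0.80 in blood neutrophils. Only the DP library was high, and both neutrophil libraries rested on few fragments, about 33.3 in the nose and 24.5 in blood for a transcript of 564.5 nt. The level in DP was 90.7-fold that in nasal neutrophils, a log2 ratio of 6.22, and 19 of the 10719 tested genes had a larger one. Against blood neutrophils the log2 ratio was 7.86. In DP 97.7% of the tested genes were lower than Ltc4s, compared with 44.2% in nasal neutrophils and 26.3% in blood neutrophils, a rank that does not depend on how the libraries are scaled. Transcript length went with the ratios of all genes, since the median log2 ratio over nasal neutrophils was 1.29 among the 1038 genes between 400 and 1000 nt long, and 0.39 among the 6585 that had 2000 nt or more. Corrected for the median of its own length bin, 1.42, the Ltc4s ratio was 4.81.

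The other leukotriene members, Alox5, Alox5ap and Lta4h, did not share that pattern. Alox5, the 5-lipoxygenase, was at 80.4 FPKM in DP, 78.9 in nasal and 198.5 in blood neutrophils. DP and nasal neutrophils were nearly level, and the blood library was 2.47-fold higher than DP and 2.52-fold higher than nasal neutrophils. Alox5ap, which encodes FLAP, was the most abundant member in every library, at 1015 FPKM in DP, 1495 in nasal and 3669 in blood neutrophils. Its log2 ratio was -0.56 for DP over nasal neutrophils, -1.30 for nasal over blood neutrophils and -1.85 for DP over blood neutrophils, and at least 99.3% of the tested genes were lower in each library. Lta4h varied least over the 3 libraries, at 43.7, 36.3 and 38.1 FPKM in DP, nasal neutrophils and blood neutrophils, within 1.20-fold in each pair. The sign of the small Lta4h and Alox5 differences between DP and nasal neutrophils turned negative when ratios were centred on the median of all tested genes, at -0.31 for Lta4h and -0.55 for Alox5.

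Ratios of genes within a library are free of the scaling between libraries and were taken at the branch point. They are not free of the trend with transcript length. For DP over nasal neutrophils the median log2 ratio was 1.42 in the length bin of Ltc4s and 0.64 in that of Lta4h. Ltc4s over Lta4h was 9.57 in DP, 0.127 in nasal and 0.0209 in blood neutrophils. Ltc4s thus exceeded Lta4h in DP on this scale per length, while Lta4h exceeded Ltc4s 7.88-fold in nasal neutrophils and 47.8-fold in blood neutrophils. The ratio of Alox5ap to Alox5 stayed closer together, at 12.6 in DP, 18.9 in nasal and 18.5 in blood neutrophils. These are ratios of transcripts, and neither enzyme activity nor leukotrienes were measured.

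**Figure D1:**
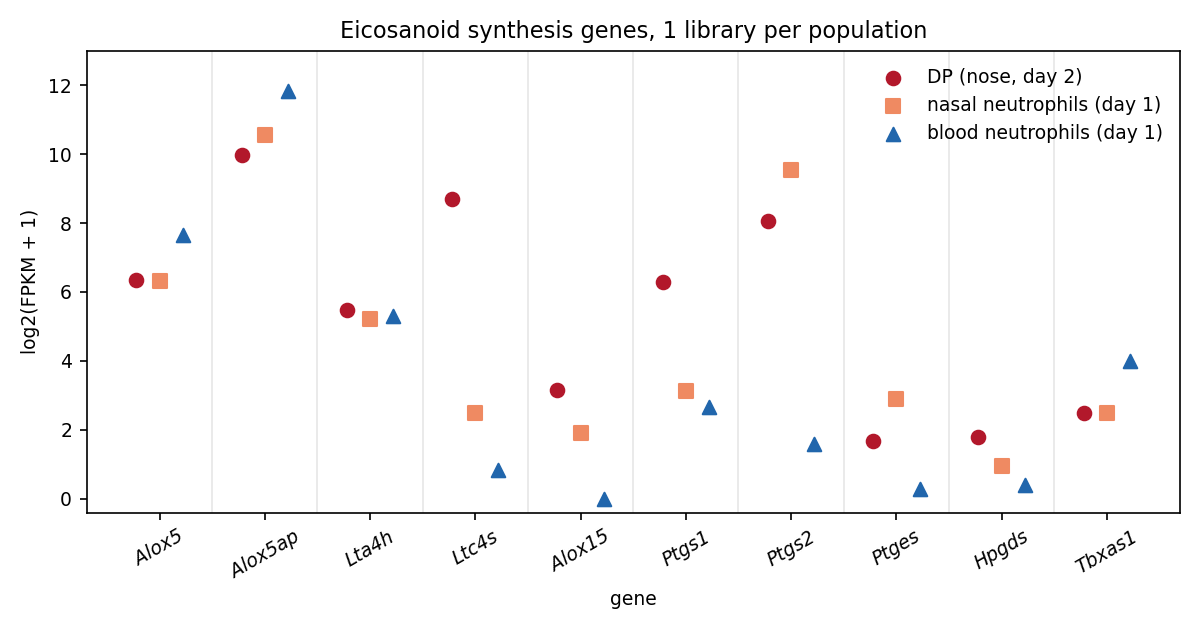
Level of each of the 10 genes on the log2(FPKM + 1) scale in DP (circles), nasal neutrophils (squares) and blood neutrophils (triangles), 1 library each, so no error bars can be drawn. Ltc4s (417.9 FPKM) and Ptgs1 (77.5 FPKM) are highest in DP, Ptgs2 (738.4 FPKM) is highest in nasal neutrophils, and Alox5, Alox5ap and Tbxas1 are highest in blood neutrophils.

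Alox15 was low, with DP at 7.98 FPKM and nasal neutrophils at 2.73, and in blood neutrophils it was listed at 0. The DP value was 2.92-fold the nasal neutrophil value, which rested on about 84.2 fragments. Its log2 ratio was 1.27, and 75.3% of the tested genes had a lower one.

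The 2 cyclooxygenase genes differed in opposite directions between the nasal libraries. Ptgs1, the constitutive enzyme of many tissues and of platelets, was at 77.5 FPKM in DP, 7.75 in nasal and 5.32 in blood neutrophils. The library of DP was high and both neutrophil libraries were low and near each other, which gives log2 ratios of 3.17 for DP over nasal neutrophils, 3.63 for DP over blood neutrophils and 0.47 for nasal over blood neutrophils. Ptgs2, the inducible enzyme, was at 263.7 FPKM in DP, 738.4 in nasal and, lowest, 2.01 in blood neutrophils. Both nasal libraries were high and blood was low. The log2 ratio was 7.94 for nasal over blood neutrophils, where 25 tested genes had a larger one, and 6.46 for DP over blood neutrophils. Between the nasal libraries it was -1.48, which is under 4-fold as deposited and passed 4-fold at -2.06 when centred on the median of all tested genes. Ptgs2 over Ptgs1 within a library was 3.4 in DP, 95.3 in nasal and 0.378 in blood neutrophils.

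The 3 member genes for enzymes that act after the cyclooxygenases had levels of at most 15.0 FPKM. Ptges, the inducible prostaglandin E synthase that is often induced together with Ptgs2, was at 2.17 FPKM in DP, 6.48 in nasal and 0.218 in blood neutrophils. It had the same order of libraries as Ptgs2, and Ptgs2 over Ptges was 121.5 in DP, 113.9 in nasal and 9.25 in blood neutrophils. Hpgds was the lowest member in nasal neutrophils, at 2.49 FPKM in DP, 0.917 in nasal and 0.319 in blood neutrophils. Its nasal neutrophil value rested on about 40.8 fragments. Tbxas1 was at 4.60 FPKM in both DP and nasal neutrophils and at 15.0 in blood neutrophils, 3.25-fold higher in blood than in either. In DP at most 33.3% of the tested genes were lower than any of these 3 members. In nasal neutrophils 53.1% were lower than Ptges, and in blood neutrophils 73.6% were lower than Tbxas1.

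**Figure D2:**
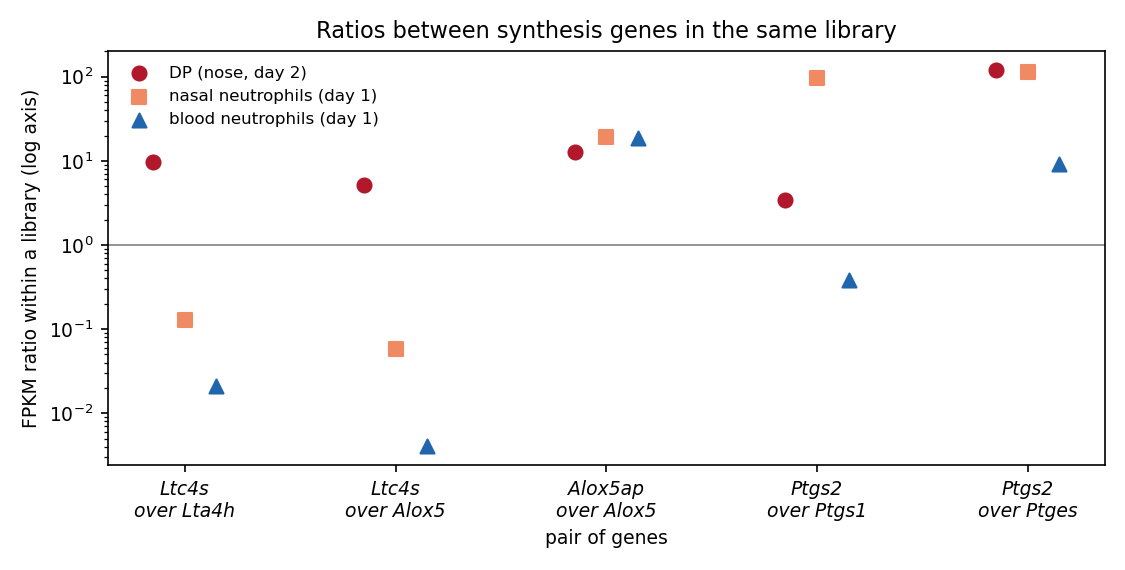
FPKM ratio of pairs of synthesis genes within the same library (log axis, line at equal levels), in DP (circles), nasal neutrophils (squares) and blood neutrophils (triangles), 1 library each. Ltc4s over Lta4h is 9.57 in DP and below 1 in both neutrophil libraries, and Ptgs2 over Ptgs1 is 3.4 in DP against 95.3 in nasal neutrophils.

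The 10 genes were then set against all tested genes, which shifted between libraries: the median log2 ratio was 0.57 for DP over nasal neutrophils, 0.41 for nasal over blood neutrophils and 0.95 for DP over blood neutrophils. In DP over nasal neutrophils, Ltc4s and Ptgs1 were at least 4-fold higher (2 of 10, where 8.42% of all tested genes were) and 0 of 10 were at least 4-fold lower (3.62% of all). Relative to the median of all tested genes their log2 ratios were 5.65 and 2.59. The median of the members was 0.14, and 5 of the 10 lay within 2-fold. In nasal over blood neutrophils, Ptgs2 and Ptges were at least 4-fold higher (2 of 10, where 13.1% of all were) and 0 of 10 at least 4-fold lower (3.23% of all), with a median of 0.50. In DP over blood neutrophils, Ltc4s, Alox15, Ptgs1 and Ptgs2 were at least 4-fold higher (4 of 10, where 24.0% of all were) and 0 of 10 at least 4-fold lower (3.57% of all), with a median of 1.39. The last count includes Alox15, listed at 0 in blood neutrophils. With ratios centred on the median of all tested genes, 3 members became at least 4-fold lower in DP than in blood neutrophils, namely Alox5 (-2.25), Alox5ap (-2.81) and Tbxas1 (-2.46). Centring also changed the balance of all tested genes. For DP over nasal neutrophils 903 lay beyond 4-fold upward and 388 downward as deposited, and 360 and 773 when centred. For nasal over blood neutrophils these numbers were 1408 and 346 as deposited and 968 and 609 when centred, and for DP over blood neutrophils 2577 and 383 as deposited and 1116 and 971 when centred. The comparisons share libraries, so these counts are not independent of each other.

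**Figure D3:**
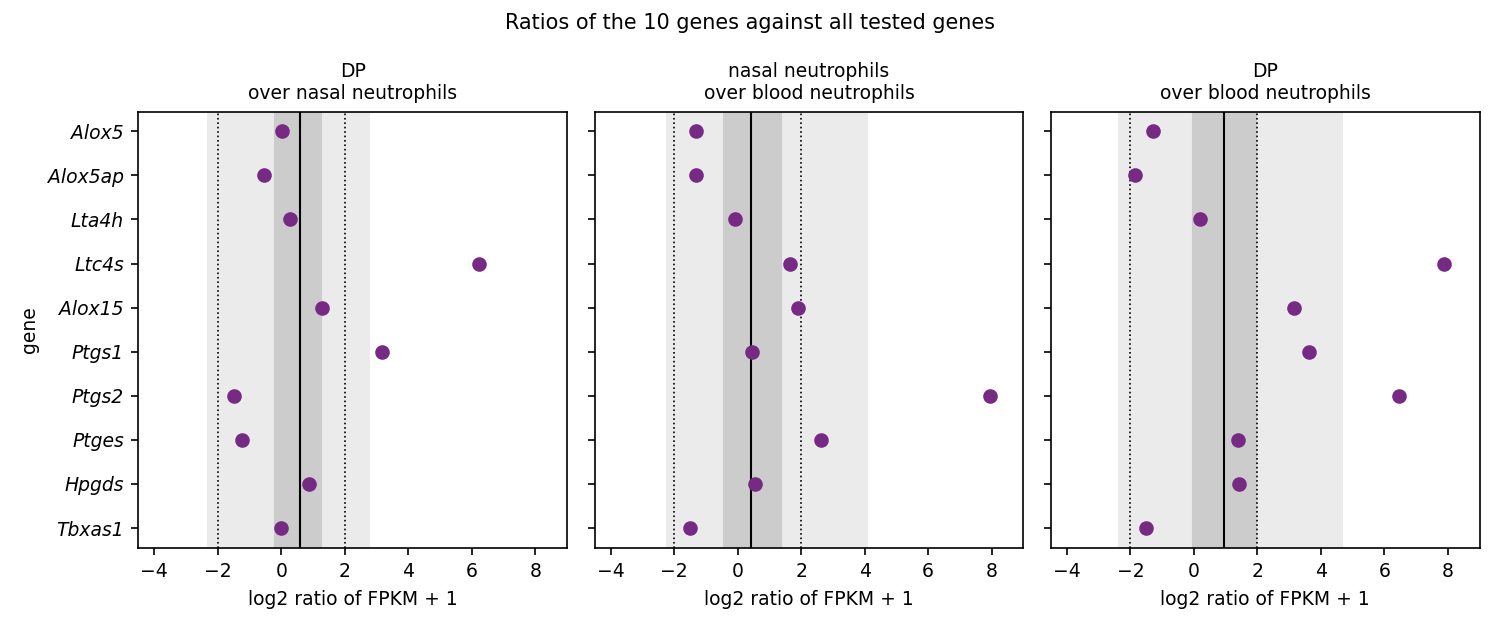
log2 ratio of FPKM + 1 of each of the 10 genes (points) in 3 comparisons, over the range of all 10719 tested genes (light band, central 95%; dark band, central 50%; solid line, median; dotted lines, 4-fold). Ltc4s (6.22) and Ptgs1 (3.17) lie beyond the light band for DP over nasal neutrophils, Ptgs2 (7.94) does for nasal over blood neutrophils, and Ltc4s (7.86) and Ptgs2 (6.46) do for DP over blood neutrophils.

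The genes around these enzymes were read from a list of 61 genes that supply arachidonic acid, make other eicosanoids, break them down, export them or receive them, of which 30 reached a mean of 1 FPKM. Low genes can reach that mean through 1 library, as Akr1b3 and Pla2g12a did through DP (3.73 and 3.63 FPKM). The same filter was applied to all tested genes. In DP over nasal neutrophils 6 of the 30 exceeded 4-fold upward (8.42% of all tested genes did) and 3 downward (3.62% of all), with a median log2 ratio of 0.29. When centred, 2 did so upward and 5 downward (360 and 773 of all 10719 tested genes), and the median was -0.29. Pla2g4a, the cytosolic phospholipase A2 that releases arachidonic acid from membranes, was at 33.8 FPKM in DP, 5.92 in nasal and 7.14 in blood neutrophils. It had the same order of DP over both neutrophil libraries as Ltc4s and Ptgs1, and its log2 ratio of 2.33 over nasal neutrophils was under 4-fold when centred (1.76). Anxa1, which encodes annexin A1, an anti-inflammatory protein, was lower in DP at 255.7 FPKM, against 1086 in nasal and 3700 in blood neutrophils.

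Among receptors, Cysltr1, a receptor for the cysteinyl leukotrienes that follow from Ltc4s, was at 22.9 FPKM in DP, 1.06 in nasal and 0.67 in blood neutrophils. Its log2 ratio over nasal neutrophils was 3.54, the highest of the 30 genes, and 2.96 when centred. Ltb4r1, which encodes the leukotriene B4 receptor BLT1, was at 63.4, 108.9 and 93.6 FPKM in DP, nasal neutrophils and blood neutrophils, within 2-fold in each pair as deposited. When centred, its log2 ratio was -1.35 for DP over nasal neutrophils and -1.51 for DP over blood neutrophils. Fpr2, a receptor for lipoxin A4 and formyl peptides, was lower in DP at 66.8 FPKM, against 221.9 in nasal and 194.5 in blood neutrophils. The prostaglandin E2 receptors differed from each other between nose and blood. Ptger4 was at 3.61 FPKM in DP, 9.77 in nasal and 1.52 in blood neutrophils, and Ptger2 at 7.03, 3.91 and 22.6 in the same libraries, so that blood was lowest for Ptger4 and highest for Ptger2. Their log2 ratios for nasal over blood neutrophils were 2.09 and -2.27. Ptger1, a further prostaglandin E2 receptor gene, was low, at 1.27 FPKM in DP, 2.72 in nasal and 1.53 in blood neutrophils. Ptgir, the prostacyclin receptor gene, was at 0.0376 FPKM in DP, 2.996 in nasal and 0.848 in blood neutrophils.

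Of 7 tested genes for the breakdown of leukotrienes and prostaglandins, 1 exceeded 4-fold upward (8.42% of all tested genes did) and 1 downward (3.62% of all) for DP over nasal neutrophils. Cyp4f18, the mouse neutrophil enzyme that hydroxylates leukotriene B4, was abundant at 2406 FPKM in DP, 377.2 in nasal and 1094 in blood neutrophils. DP was highest as deposited and nasal neutrophils lowest, with a log2 ratio of 2.67 between them. That ratio was 2.095 when centred and, under 4-fold, 1.95 when corrected for transcript length. For DP over blood neutrophils the log2 ratio of Cyp4f18 was 1.14, 0.18 when centred and -0.20 when corrected for length. Which of these 2 libraries was higher thus depends on the processing. Ggt1, a gamma-glutamyl transferase able to turn leukotriene C4 into D4, was at 2.74 FPKM in DP, against 29.1 in nasal and 10.3 in blood neutrophils. Dpep2, the dipeptidase that turns leukotriene D4 into E4, was at 23.9, 12.3 and 1.94 FPKM in DP, nasal neutrophils and blood neutrophils. Abcc1, an exporter of leukotriene C4, was at 10.6 FPKM in DP, 19.6 in nasal and 0.175 in blood neutrophils. Ggt5, the other gamma-glutamyl transferase gene on the list, was at 9.34 FPKM in DP, 9.67 in nasal and 17.6 in blood neutrophils. Thus Ltc4s and Cysltr1 were both higher in DP, compared with nasal neutrophils, while Ggt1 was lower and Ggt5 and Abcc1 lay within 2-fold as deposited. When centred, the log2 ratio over nasal neutrophils was -0.62 for Ggt5 and -1.40 for Abcc1.

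**Figure D4:**
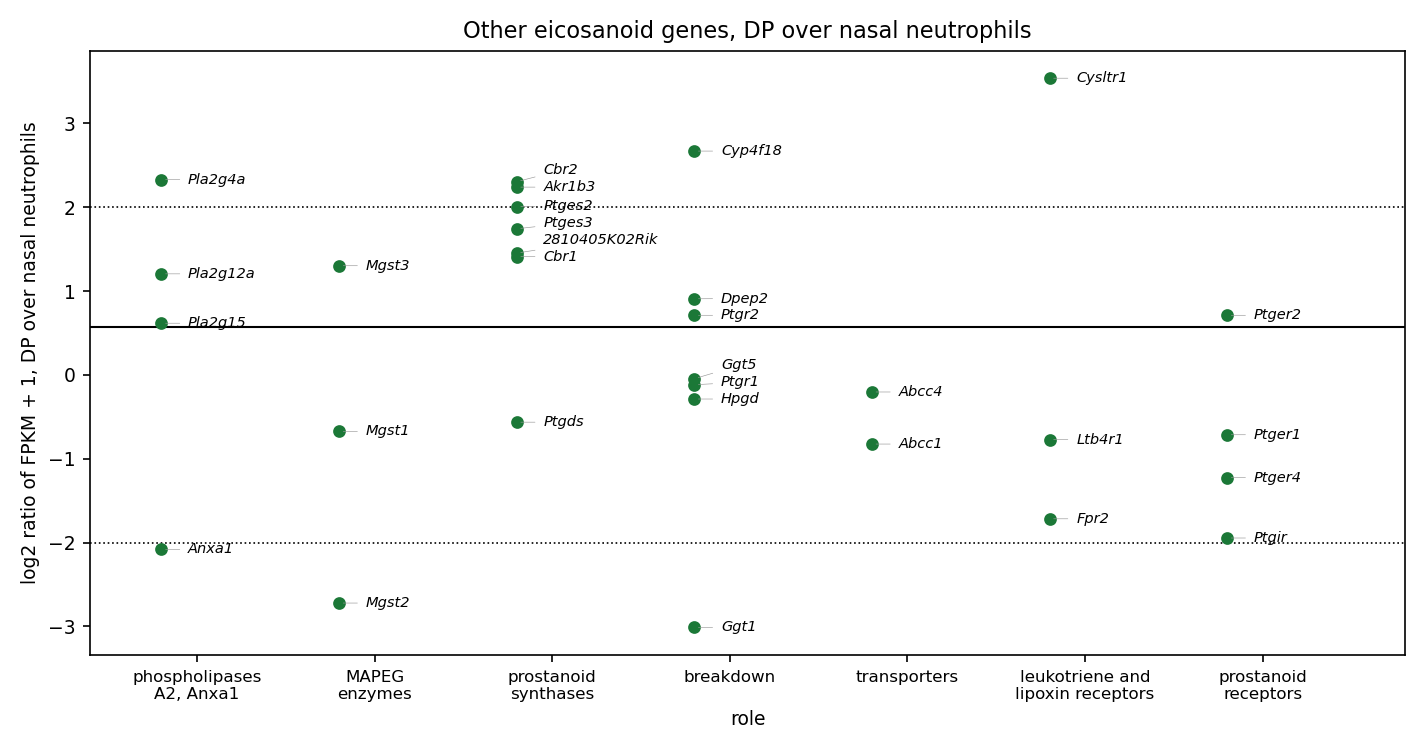
log2 ratio of FPKM + 1 for DP over nasal neutrophils of the 30 other eicosanoid genes at a mean of 1 FPKM or more, by role (solid line, median of all tested genes, 0.57; dotted lines, 4-fold). Cysltr1 (3.54), Cyp4f18 (2.67), Pla2g4a (2.33), Cbr2 (2.30), Akr1b3 (2.24) and Ptges2 (2.01) lie above the upper dotted line, and Ggt1 (-3.01), Mgst2 (-2.72) and Anxa1 (-2.08) below the lower.

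Ltc4s belongs with Alox5ap and Ptges to the membrane-associated proteins in eicosanoid and glutathione metabolism (MAPEG), and the 3 other MAPEG genes differed in direction among themselves. Mgst2, whose product can also make leukotriene C4, was at 1.05 FPKM in DP, against 12.5 in nasal and 22.7 in blood neutrophils. Its order of libraries was the opposite of that of Ltc4s, and about 31.3 fragments supported the DP value. Mgst1 likewise was highest in blood, at 213.4, 340.9 and 743.9 FPKM in DP, nasal neutrophils and blood neutrophils. Mgst3 had the same order of libraries as Ltc4s, at 130.7 FPKM in DP, 52.4 in nasal and 0.711 in blood neutrophils. Of 7 tested prostanoid synthases outside the members, 6 were at least 4-fold higher in DP than in blood neutrophils (24.0% of all tested genes were), and 3 in nasal than in blood neutrophils (13.1% of all). Ptges2, a prostaglandin E synthase, was at 17.2, 3.53 and 0.253 FPKM, and Cbr2, a carbonyl reductase, was at 803.2, 161.8 and 0.104 FPKM in DP, nasal neutrophils and blood neutrophils. In the same libraries 2810405K02Rik, the older name of the prostaglandin F synthase gene Fam213b, was at 218.8, 79.3 and 1.90 FPKM, and Ptgds, the brain-type prostaglandin D synthase, was at 10.0 and 15.3 FPKM in the nose and listed at 0 in blood. Akr1b3, an aldose reductase, was at least 4-fold higher in DP than in nasal neutrophils on the log2(FPKM + 1) scale, at 3.73 FPKM in DP, with 0.551 in blood neutrophils and a nasal neutrophil value of 0.00105 FPKM, less than that of a single fragment, so no fold is given.

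In nasal over blood neutrophils 7 of the 30 genes were at least 4-fold higher, where 13.1% of all tested genes were (Mgst3, Cbr2, 2810405K02Rik, Ptgds, Abcc1, Dpep2 and Ptger4). Ptger2 was the 1 gene at least 4-fold lower, where 3.23% of all were. The median was 0.96. In DP over blood neutrophils 12 were at least 4-fold higher (24.0% of all), Ptgds with blood at 0 among them, and 2, Anxa1 and Mgst2, at least 4-fold lower (3.57% of all). The median was 1.14. Besides Pla2g4a, Cysltr1, Mgst3, Ptges2, Cbr2, 2810405K02Rik, Ptgds, Abcc1 and Dpep2, the 12 were Ptges3 (245.1 FPKM in DP and 28.0 in blood neutrophils), Cbr1 (26.6 and 2.78) and Pla2g12a (3.63 and 0.0509).

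Transcripts of other cells that use these enzymes were read beside the members, since fewer cells of a type and less RNA per cell cannot be told apart in a bulk library. Of 9 eosinophil markers, 1 reached 1 FPKM in DP, 2 in nasal and 3 in blood neutrophils, their sums were 3.25, 14.15 and 6.86 FPKM, and Epx and Prg3 were at 0 in all 3 libraries. Of these markers 4 were higher in DP, compared with nasal neutrophils, and 3 lower. Ccr3 was at 1.92 FPKM in DP, 0.486 in nasal and 4.15 in blood neutrophils, and Ear2, which made up most of the nasal sum, at 0.427, 11.5 and 1.34 FPKM. Of 9 mast cell and basophil markers, 8 were at 0 in DP, and their sums were 1.57, 6.23 and 0.856 FPKM in DP, nasal neutrophils and blood neutrophils, with Tpsab1, Mcpt4 and Fcer1a at 0 throughout. All 9 macrophage markers were lower in DP than in nasal neutrophils, with sums of 162 FPKM in DP, 358.6 in nasal and 164.9 in blood neutrophils and 5, 5 and 2 of them at 1 FPKM or more. Of 6 monocyte and dendritic cell markers 5 were lower in DP than in nasal neutrophils, with sums of 319.1, 782.4 and 277.5 FPKM across DP, nasal and blood neutrophils. Of 6 T and innate lymphoid cell markers 3 were lower, with sums of 2.99, 3.27 and 5.96 FPKM. The part of any of these cell types in the member values was not tested.

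The nasal libraries also held transcripts of the surrounding tissue. Markers of nasal epithelium and olfactory neurons summed to 2261 FPKM in DP, 2015 in nasal and 1.59 in blood neutrophils, with all 9 at 1 FPKM or more in each nasal library and 0 of 9 in blood. The largest DP over nasal neutrophil ratio in this list was 7.14-fold, for Bpifa1, which encodes a secreted airway protein. Of 9 markers of tuft and solitary chemosensory cells, epithelial cells that make cysteinyl leukotrienes, 4 reached 1 FPKM in DP, 5 in nasal and 1 in blood neutrophils. Their sums were 228.6, 58.5 and 3.77 FPKM, and 6 of the 9 were lower in DP than in nasal neutrophils. The largest ratio was 4.59-fold, for Gng13. This gene alone supplied 217.1 FPKM of the DP sum and 47.3 FPKM of the nasal neutrophil sum. The higher sum of DP thus rested largely on Gng13. The part of RNA from this tissue in the Ltc4s, Ptgs1, Ptgs2, Pla2g4a, Cysltr1, Cbr2, Mgst3, Ptges2, Ptgds or 2810405K02Rik values was not tested. Of 7 platelet markers, the cells best known for Ptgs1 and Tbxas1, 2 reached 1 FPKM in each nasal library and 4 in blood neutrophils, with sums of 8.53, 5.21 and 26.01 FPKM in DP, nasal neutrophils and blood neutrophils. Of the platelet markers 6 had a higher level in DP than nasal neutrophils did, 2 of which were at 0 in nasal neutrophils. Tbxas1 was likewise highest in blood, and Ptgs1 was lowest in blood. The part of platelets in the Tbxas1 and Ptgs1 values was not tested. Exons of Alox5ap, Ltc4s, Ptgs1 and Tbxas1 each overlap those of a gene on the opposite strand in the GENCODE M21 annotation. Whether the libraries keep strand is not given in the sources used here, and reads of such partners could then not be told apart.

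The genes with the most similar log2 ratios of FPKM + 1, rather than levels, were sought for Ltc4s and Ptgs2. The distance joined the ratios of DP over nasal and DP over blood neutrophils. It was taken to 5962 other genes that averaged at least 5 FPKM and exceeded 0 in every library. No gene was close to Ltc4s. The nearest, Lsm7, an RNA-binding protein gene, was 2.13 log2 units away, at 326.2 FPKM in DP, 10.7 in nasal and 3.22 in blood neutrophils, followed by Expi, Bpifb5, 1110017D15Rik and A430084P05Rik at 2.17 to 3.05. Bpifb5, of the same family of secreted proteins as the airway marker Bpifa1, was 15.2-fold higher in DP than in nasal neutrophils, and Expi, the gene of a secreted proteinase inhibitor, was 62.5-fold higher. Both exceed the ratios within the tissue marker lists. Ptgs2 had close neighbours on this scale, where the added 1 FPKM hides differences between low values. Ptgs2 itself was at 2.01 FPKM in blood neutrophils. Il23a, a cytokine subunit gene, was 0.06 log2 units away, at 90.0 FPKM in DP, 261.3 in nasal and 0.0589 in blood neutrophils, while the kinase gene Plk3 was 0.43 away, at 232, 499.9 and 1.31 FPKM. Saa3, Ikbke and Bhlhe40 followed at 1.11 to 1.18. Likeness over 3 libraries is a description and many genes can share it.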

How the data were processed

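RNA abundance was measured in 3 sorted mouse populations, 1 library each, grouped by the titles in the labels. The authors deposited FPKM values per gene (the unit follows from the Cufflinks gene column named in the file headers, with values as decimals). TopHat2 2.0.8, Bowtie2 2.1.0, Cufflinks 2.1.1 and the build mm9 are named per the submitters' processing notes. The settings, annotation and strand handling were not given in the sources used here. Since FPKM are estimates, no count model was used, and with 1 library per group no test was made.

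Genes at a mean of 1 FPKM or more were compared as log2(FPKM + 1) differences, and 4-fold, a log2 ratio of 2, was used as a limit. Values below 1e-06 FPKM were read as 0. The members and gene lists were chosen with earlier results of these data known. Named were all members, other eicosanoid genes at least 4-fold different in a comparison, receptors at a mean of 1 FPKM or more, the 5 genes most like Ltc4s and Ptgs2 in pattern, and markers. Mgst1, Ggt5 and the low genes of the closing section other than receptors lie outside this rule and were named after their values were seen. The same holds for the receptors under 1 FPKM. Sequence motifs, the pairs of genes for ratios within a library and the strand overlap were chosen after the values were seen.

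For depth, FPKM was multiplied by length for genes that have 1 annotated transcript longer than 1500 nt. The value of 1 fragment was taken where the most low genes gathered within 6%, less those at 0.5 of that value. There were 66, 76 and 50 such genes in DP, nasal and blood neutrophils, and 19, 6 and 4 at 0.5 of it, so depths and fragment numbers are approximate. Transcript lengths were medians over RefSeq-matched transcripts of GENCODE M21, or the longest transcript where none was matched, and were found for 98.7% of tested genes. Alternatives were other pseudocounts, filters, scalings, a correction in 20 length bins, the omission of genes at 0 and a 2-fold limit. Ratios were computed with Python 3.11.15, numpy 2.4.6 and pandas 2.3.3, and the calculation was checked on artificial data.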

Additional observations from a re-analysis of the deposited data

How the results depend on the processing

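Counts were compared over the 10 members and the 30 other eicosanoid genes with settings changed singly, and a median was taken as moved when it shifted by more than 1.5-fold. Where a cause is not plain from the setting itself, it was not tested. With 1 library per group, no library could be left out. No paired analysis was possible because each group is a single library.

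For DP over nasal neutrophils, centring on the median or upper-quartile scaling left 1 member (Ptgs2) at least 4-fold lower and gave 2 other genes higher and 5 lower; with the latter, the median log2 ratio of members, DP over nasal neutrophils, was -0.46; it was -0.43 when centred and -0.39 when corrected for transcript length, so its sign depends on the scaling. Correction for transcript length gave 1 other gene higher and 5 lower, and a pseudocount of 5 gave 3 higher. At 2-fold, 2 members were lower, and 11 other genes were higher and 6 lower. Among all 10719 tested genes, 3600 were higher and 1207 lower at 2-fold, 360 and 773 when centred, and 350 and 734 with upper-quartile scaling. With a pseudocount of 5 they were 441 and 203, and with length correction 249 and 717 of 10580.

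For nasal over blood neutrophils, a pseudocount of 0.1 gave 4 members higher, and 11 other genes higher and 2 lower, while among all 10719 tested genes 2886 were higher, against 1408 as reported. A pseudocount of 5 gave 1 member higher and 0 other genes lower, and a minimum mean of 5 FPKM 1 member higher. Centring gave 2 other genes lower. Correction for length gave 1 member lower, 4 other genes higher and 3 lower, with their median at 0.34; with no filter that median was 0.20. At 2-fold, 4 members were higher and 3 lower, and 14 other genes were higher and 4 lower. Among all 10719 tested genes, 3595 were higher and 1372 lower at 2-fold, 470 and 215 with a pseudocount of 5, and 968 and 609 when centred. With length correction they were 940 and 572 of 10580. With a pseudocount of 0.1, 485 of all were lower, and all genes were not counted at a minimum mean of 5 FPKM.

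For DP over blood neutrophils, centring, upper-quartile scaling and length correction each gave 3 members and 6 other genes lower, as did 2-fold, and length correction gave 6 other genes higher. Among all 10719 tested genes, 971 were lower when centred, 788 with upper-quartile scaling and 1017 at 2-fold. With length correction 969 of 10580 were higher and 964 lower. The member median was 2.73 with a pseudocount of 0.1, 0.48 with 5, 0.19 at a mean of 5 FPKM or more, 0.44 centred and 0.61 with length correction. The median of the other genes was 1.74 and 0.53 with these pseudocounts, 0.13 with no filter, 2.09 at a mean of 5 FPKM or more, 0.19 centred, 0.55 with upper-quartile scaling and 0.13 with length correction.

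Of 259 recomputed ratios of single members, 239 stayed on their side of 4-fold, 18 passed it in the same direction, 2 fell short of it and 0 of those past it changed sign. For the other genes these were 706, 34, 38 and 0 of 778. Ltc4s and Ptgs1, in both comparisons of DP, stayed at least 4-fold higher under every alternative run. The low depth of nasal neutrophils limits Ltc4s, Hpgds and Alox15 there.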

Other observations

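Several genes of eicosanoid metabolism were barely present in any library. Of the 61 genes in the wider list, 31 stayed under a mean of 1 FPKM. The other lipoxygenase genes were all among them: Alox12 was at 0.95 FPKM in DP, 0.61 in nasal and 1.33 in blood neutrophils, Alox8 at 0.83, 0.90 and 1.24, and Alox12e at 0.41 and 0.94 in the nose and listed at 0 in blood. Of the receptors, Cysltr2, the other cysteinyl leukotriene receptor gene, was listed at 0 in DP and nasal neutrophils and was at 0.221 FPKM in blood neutrophils, while Oxgr1, which has been described as a leukotriene E4 receptor gene, and Ptgdr2, a prostaglandin D2 receptor gene listed under its older symbol, were at 0 in all 3 libraries. Pla2g2d, a secreted phospholipase A2 gene, was at 0.97, 0.79 and 0.90 FPKM in DP, nasal neutrophils and blood neutrophils.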
